A study of Mus musculus with 6 samples.

Results

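The Hox genes of the 4 mammalian clusters were taken as every gene whose symbol is Hoxa, Hoxb, Hoxc or Hoxd followed by a paralog number, which gave 39 of the 21877 gene symbols in the table. The rule used symbols only and no measured value. Transcript levels came from RNA sequencing of Mus musculus embryos that the labels place at embryonic day 7.5. There were 3 wild-type libraries (WT 1 to WT 3), with no further allele or agent named, and 3 libraries of embryos with the Rnf111 S254D knock-in (KI 1 to KI 3). Rnf111 encodes a ubiquitin ligase that acts in the Nodal and TGF-beta pathways, and the comparison asks how this allele bears on transcript levels in the embryo. The sources used here do not give zygosity, strain, sex, litter, pooling of embryos or which tissues were kept. As separate embryos are not stated, each p-value reflects the spread between these samples only, and that spread may be technical in part.

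Hox genes encode homeodomain transcription factors that give cells along the head-to-tail axis their regional identity. The genes lie in order along each chromosome cluster. Genes with low paralog numbers, at the 3′ end, are switched on first during gastrulation and reach furthest forward, while genes with high numbers follow later and stay near the tail (temporal and spatial collinearity). Genes with the same number in different clusters are paralogs, descended from a single ancestral gene, and often share functions. In the mouse gastrula the earliest Hox transcripts appear in the posterior primitive streak and spread forward into the hindbrain and trunk.

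Levels were given as RPKM, read density per kilobase of exon scaled to library depth, which allows genes of different length to be compared. The depths that these values imply lay between 9763000 reads in KI 2 and 13559000 in WT 3, and the reads assigned to 38 of the Hox genes summed to between 2549 in KI 2 and 4292 in WT 2. Rnf111 itself read 1.74, 2.53 and 2.12 RPKM in WT 1 to WT 3 and 1.98, 2.57 and 1.5 RPKM in KI 1 to KI 3, and a change of 1 amino acid need not alter its level. WT 3 and KI 2 stood apart from the other libraries on the first and second principal components (61.5% and 25.1% of the variance of log2 values), and printed differences that move by over 1.5 times without either are also given without it. In WT 3 the median log2 level was 2.49, against 2.79 to 2.97 in the others. KI 2 had a sum of 9.19 RPKM over 7 yolk sac endoderm markers such as Afp and Ttr, against 433, 437 and 1237 RPKM in WT 1 to WT 3 and 540 and 649 RPKM in KI 1 and KI 3. The labelled stage was checked against 8 streak and epiblast markers, of which 2 were tested. The streak genes T (brachyury) and Mixl1 lay between 6.24 and 12.5 RPKM and between 2.72 and 17.0 RPKM. The epiblast gene Pou5f1 reached at most 0.0386 RPKM and the streak gene Eomes at most 0.0835 RPKM. The rest of the list read at most 0.354 RPKM, apart from a value of 1.10 RPKM in WT 1. Most markers of this list were thus near 0, and only T and Mixl1 were clearly read in every library. The embryonic globin gene Hba-x lay between 784 and 1383 RPKM. The stage is therefore given as the label's, and the streak and epiblast list as a whole did not bear it out. Hox genes with higher numbers, which follow later, were read, and the mean group 9 sum was 22.3 RPKM in WT and 24.0 in KI. Meox1 (paraxial mesoderm) reached 33.7 RPKM in WT 1 and Nkx6-1 (spinal cord and hindbrain) 7.61 RPKM in KI 2. Uncx and Olig2 of the same marker lists read at most 0.144 and 0.499 RPKM. Whether these levels belong to the labelled stage was not tested, so none below is given as typical of the gastrula.

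The Hox genes were expressed at low to moderate levels up to paralog group 10, and almost nothing was read beyond it. Mean levels over the 6 libraries were 5 RPKM or more for 10 genes, 1 to 5 RPKM for 12, 0.3 to 1 RPKM for 5 and below 0.3 RPKM for 12. In 18 genes every library reached 1 RPKM. Hoxb1 had the highest mean (15.1 RPKM). Hoxa9 (10.2 RPKM), Hoxb2 (7.84 RPKM), Hoxa2 (7.13 RPKM) and Hoxb4 (7.09 RPKM) were also among the highest. The ranges of neighbours in this order overlapped over the 6 libraries, so the order is that of the means only.

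**Figure D1:**
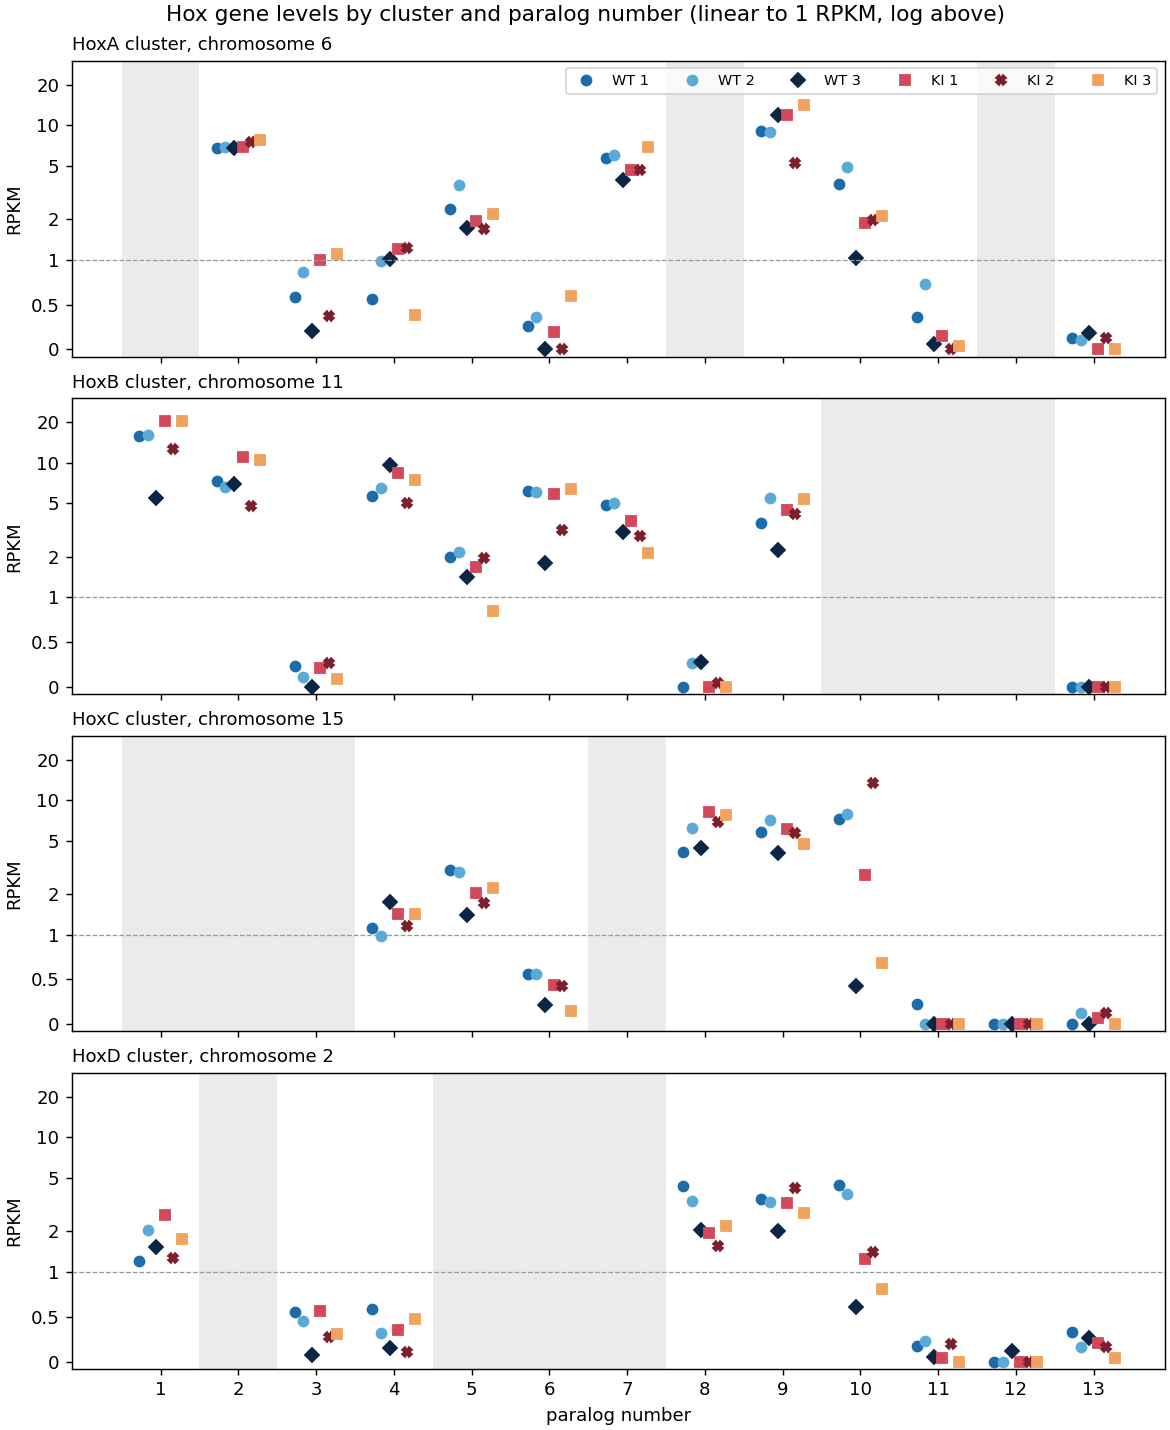
RPKM of the Hox genes (vertical axis, linear up to 1 RPKM and logarithmic above) against paralog number, with a panel for each cluster, a point for each of the 6 libraries, a dashed line at 1 RPKM and grey bands where no gene of that number is shown. All points shown for groups 1, 2 and 9 are above 1 RPKM, group 3 lies at or below about that line, and all 9 genes of groups 11 to 13 have means below 0.3 RPKM.

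By cluster, HoxB had the highest summed level and HoxD the lowest. The 10 HoxB genes summed to 41.5 ± 9.29 RPKM in WT and 47.8 ± 11.3 RPKM in KI (SD, n = 3 each), and the 11 HoxA genes to 37.3 ± 2.80 and 37.0 ± 7.93 RPKM. The 9 HoxC genes summed to 19.98 ± 6.94 and 22.4 ± 6.35 RPKM, and the 9 HoxD genes to 11.9 ± 4.42 and 9.27 ± 0.980 RPKM. HoxB was above HoxA in every library but WT 3, HoxA was above HoxC in every library, and HoxC was above HoxD in every library. The level did not fall steadily with paralog number. Group 1 summed to 21.5 ± 5.47 RPKM in WT and group 2 to 13.8 ± 0.242 RPKM, group 3 only to 1.03 ± 0.648 RPKM, group 9 again to 22.3 ± 2.23 RPKM, and group 11 to 0.609 ± 0.437 RPKM.

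Hoxb1, which specifies the identity of the fourth rhombomere of the hindbrain and is among the first Hox genes to be transcribed, read 15.7, 16.1 and 5.46 RPKM in WT 1 to WT 3 and 20.4, 12.6 and 20.5 RPKM in KI 1 to KI 3. It was high in KI 1 and KI 3 and low in WT 3, and the genotypes overlapped because KI 2 fell among the WT values. Hoxb1 is known to maintain its own hindbrain transcription through sites bound jointly by HOX and PBX proteins, so its promoter is shown with the letters TGATNNAT, a form of that joint site, in capitals (GRCm38.p6, plus strand, chr11:96365508-96365757, the 250 bases before the RefSeq start).
Hoxb1 promoter: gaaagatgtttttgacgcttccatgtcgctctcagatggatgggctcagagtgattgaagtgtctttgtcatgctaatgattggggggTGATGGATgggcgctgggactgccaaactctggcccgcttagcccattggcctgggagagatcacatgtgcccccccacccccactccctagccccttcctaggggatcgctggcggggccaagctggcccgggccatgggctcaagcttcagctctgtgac
The match is a description of letters, and binding was not measured in these data.

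Hoxa2, which gives the second pharyngeal arch its identity, read 6.77, 6.93 and 6.77 RPKM in WT and 6.90, 7.56 and 7.82 RPKM in KI. It was the steadiest Hox gene tested, with a highest level 1.16 times its lowest, and only KI 1 overlapped with the WT range. Hoxb2, a neighbour of Hoxb1 with roles in the hindbrain, read 7.25, 6.60 and 6.98 RPKM in WT and 10.96, 4.79 and 10.4 RPKM in KI, so that KI 1 and KI 3 were above all WT libraries and KI 2 below them. Hoxd1, known in the mouse for its role in pain-sensing neurons, lay between 1.21 and 2.66 RPKM in overlapping groups.

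The group 3 genes were all below the 1 RPKM mean. Hoxa3, needed for the thymus and parathyroid glands, lay between 0.208 and 1.10 RPKM, Hoxd3, which shapes the first neck vertebrae, between 0.0704 and 0.560 RPKM, and Hoxb3 between 0 and 0.265 RPKM. Group 3 thus sat between a group 2 sum of 12.3 to 18.3 RPKM and a group 4 sum of 7.47 to 12.6 RPKM in the same libraries, with 0.279 to 1.76 RPKM. Of the 39 Hox genes, 16 share exon bases with another gene in GENCODE M21, among them Hoxa3, Hoxb3 and Hoxd3, the whole of group 3. The part of this overlap in the low group 3 values was not tested. Whether the counting used strand was not given in the sources used here, so reads of a Hox gene and of an antisense or overlapping partner, such as Hoxb3 and Hoxb3os, cannot be told apart.

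In groups 4 to 8, 10 of 15 genes had a mean of at least 1 RPKM. Hoxb4, known for promoting the expansion of blood stem cells, read 5.62, 6.43 and 9.69 RPKM in WT and 8.33, 4.99 and 7.47 RPKM in KI, and was highest in WT 3. Hoxa4 lay between 0.381 and 1.22 RPKM, Hoxc4 between 0.983 and 1.75 RPKM and Hoxd4 between 0.104 and 0.586 RPKM, all with overlapping genotypes. Group 5 acts in the neck and upper thorax, and Hoxa5 is needed for normal lungs. Hoxa5 read 2.40, 3.57 and 1.73 RPKM in WT and 1.94, 1.69 and 2.17 RPKM in KI. It was high in WT 1 and WT 2 alone. Hoxb5 ranged from 0.841 to 2.18 RPKM and Hoxc5 from 1.38 to 3.01 RPKM, and both were also highest in WT 1 or WT 2.

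Group 6 and 7 genes pattern the thoracic skeleton. Hoxb6 lay between 1.80 RPKM in WT 3 and 6.40 RPKM in KI 3, Hoxc6 between 0.144 and 0.561 RPKM, and Hoxa6 between 0 and 0.596 RPKM. Hoxa7 lay between 3.90 RPKM in WT 3 and 6.88 RPKM in KI 3. Hoxb7 read 4.81, 5.01 and 3.06 RPKM in WT and 3.66, 2.85 and 2.14 RPKM in KI, with WT 3 inside the KI range. Hoxb6 was above Hoxa6 and Hoxc6 in every library.

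Group 8 split into 2 expressed genes and 1 near 0. Hoxc8, which sets the identity of thoracic vertebrae and of motor neuron pools for the forelimb, read 4.14, 6.18 and 4.40 RPKM in WT and 8.10, 6.84 and 7.72 RPKM in KI. All KI libraries were above all WT libraries. Hoxd8 went the other way, with 4.32, 3.39 and 2.04 RPKM in WT and 1.96, 1.57 and 2.21 RPKM in KI, and was high in WT 1 and WT 2, while WT 3 lay within the KI range. Hoxb8, known in the mouse for roles in the trunk, the spinal cord and microglia, had 0, 9 and 10 reads in WT and 0, 1 and 0 reads in KI, or 0, 0.269 and 0.280 RPKM and 0, 0.0389 and 0 RPKM. The 95% Poisson interval, which covers counting error only, was 0.123 to 0.511 RPKM in WT 2. For the counts of 0 the same interval reached up to 0.105 RPKM in WT 1, 0.122 in KI 1 and 0.121 in KI 3. The level of Hoxb8 was thus below that of each expressed neighbour in HoxB, Hoxb7 and Hoxb9, in every library.

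Hoxb3 (at most 0.265 RPKM), Hoxa6 (at most 0.596 RPKM) and Hoxc6 (at most 0.561 RPKM) likewise lay below both cluster neighbours in every library. For Hoxb8 the promoter and the known microRNA site are shown, and their part in its level was not tested. The promoter (GRCm38.p6, plus strand, chr11:96281655-96281904) has in capitals 3 matches to TTTATNG, letters recognised by CDX proteins, and 1 reverse-strand match to TGATNNAT. TTTATAG in it overlaps TTTATA, the reverse complement of the TATA box letters TATAAA.
Hoxb8 promoter: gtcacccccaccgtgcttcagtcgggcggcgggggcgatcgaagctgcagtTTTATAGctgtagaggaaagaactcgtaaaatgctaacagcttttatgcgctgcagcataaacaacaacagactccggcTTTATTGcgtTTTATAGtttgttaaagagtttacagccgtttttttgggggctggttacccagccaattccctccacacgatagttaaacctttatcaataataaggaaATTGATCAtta
MicroRNAs of the miR-196 and miR-10 families are encoded inside the Hox clusters, and Hoxb8 is the classical target of miR-196 in the mouse embryo. The mature RNAs are shown from RefSeq with the seed (bases 2 to 8) in capitals. The miR-196 members share a seed, as do the miR-10 members.
mmu-miR-196a-5p: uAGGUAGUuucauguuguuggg
mmu-miR-196b-5p: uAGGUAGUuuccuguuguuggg
mmu-miR-10a-5p: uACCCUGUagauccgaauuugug
mmu-miR-10b-5p: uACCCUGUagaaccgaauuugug
The best 22-base window for miR-196a in the longest 3′ UTR of Hoxb8 has 21 Watson-Crick pairs, in capitals, and 1 G:U pair.
Hoxb8 site: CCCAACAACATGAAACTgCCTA
Across the other 38 Hox genes the best window had at most 19 pairs, G:U pairs included, in Hoxa10 and Hoxd3. The 7-letter match to the miR-196 seed (ACTACCT) was in the longest 3′ UTR of 9 of 39 Hox genes, against 6.1% of 21028 genes with a 3′ UTR, and that to the miR-10 seed (ACAGGGT) in 4 of 39, against 12.5%. Matches to the miR-196 seed were found in Hoxa4, Hoxa5, Hoxa7, Hoxa9, Hoxb1, Hoxb6, Hoxb7 and Hoxc8, among others. The poly(A)-based libraries do not measure mature microRNAs, so no level of these RNAs can be set beside the Hox values.

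Groups 1 and 9 had the highest summed levels. Hoxa9, a regulator of blood progenitors and a known driver of leukaemia, read 9.07, 8.88 and 12 RPKM in WT and 11.8, 5.19 and 14.2 RPKM in KI. KI 2 was lowest and KI 3 highest, so the KI libraries spanned the whole WT range. Hoxb9 lay between 2.23 RPKM in WT 3 and 5.49 RPKM in WT 2, Hoxc9, which separates thoracic from limb motor columns in the spinal cord, between 4.07 and 7.08 RPKM, and Hoxd9 between 2.00 and 4.22 RPKM. All 4 genotype pairs overlapped.

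Group 10 genes, which give lumbar vertebrae their rib-free form and act in hindlimb motor neurons, included Hoxc10 and Hoxd10, the most variable tested Hox genes by the SD of log2(RPKM + 1) and by the ratio of highest to lowest level. Hoxc10 read 7.20, 7.81 and 0.425 RPKM in WT and 2.78, 13.4 and 0.682 RPKM in KI. It was high in WT 1, WT 2 and KI 2 and low in WT 3 and KI 3, so that both genotypes held high and low libraries. Its highest level was 31.4 times its lowest, and the SD of its log2 level over the 6 libraries exceeded that of 99.8% of tested genes. Counting error was small beside this spread, with 249 reads and a 95% interval of 11.8 to 15.1 RPKM in KI 2, and 11 reads and 0.212 to 0.760 RPKM in WT 3. Hoxc10 shares exon bases with Hoxc5, and Hoxd10 with Gm28309, so the limit on telling reads of partners apart holds here too. Hoxd10 read 4.42, 3.82 and 0.609 RPKM in WT and 1.24, 1.41 and 0.812 RPKM in KI, from 15 to 107 reads. WT 1 and WT 2 were high and WT 3 was lowest, below all KI libraries. Hoxa10, which also acts in the uterus, read 3.67, 4.87 and 1.04 RPKM in WT and 1.89, 1.97 and 2.12 RPKM in KI. WT 1 and WT 2 were again above and WT 3 below all KI libraries.

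**Figure D2:**
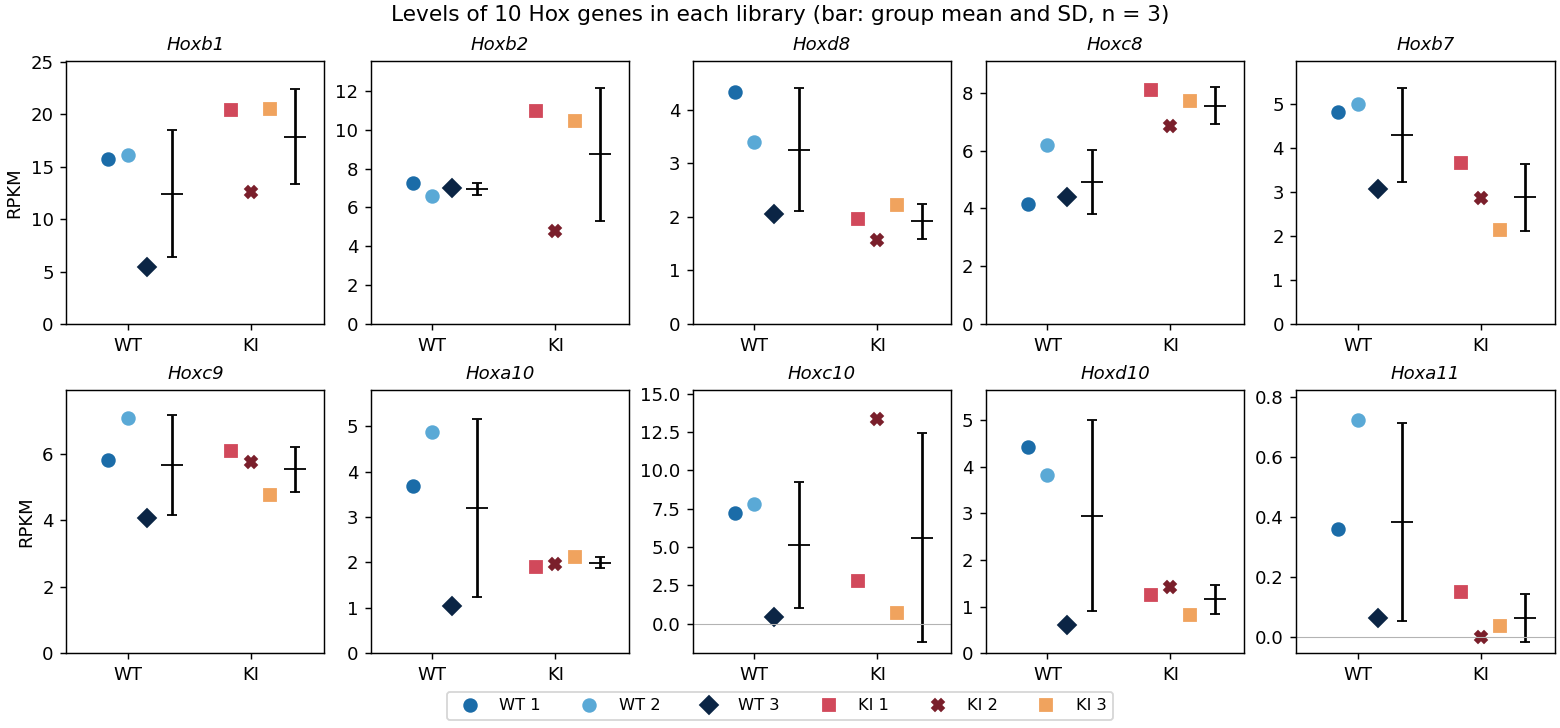
RPKM of 10 Hox genes in each library, each panel on its own linear axis, with a symbol per library and a black bar for the group mean and SD (n = 3), which reaches below 0 where the SD exceeds the mean. Hoxc8 is the only gene of the 10 with all KI points above all WT points, and Hoxc10 runs from 0.425 RPKM in WT 3 to 13.4 RPKM in KI 2.

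The 3 group 10 genes were all higher in WT 1 and WT 2 than in WT 3, where each was lowest. Hoxc10 parted from Hoxa10 and Hoxd10 in KI 2, where it was highest. Ratios to a group 9 gene also carry the changes of that gene. Relative to its cluster neighbour in group 9, Hoxc10 was at 1.24, 1.10 and 0.104 times Hoxc9 in WT and at 0.457, 2.33 and 0.144 times in KI. Hoxd10 was at 1.26, 1.16 and 0.304 times Hoxd9 in WT and at 0.382, 0.334 and 0.298 times in KI, so KI 2 was high for the HoxC ratio and not for the HoxD ratio. Hoxa10 was at 0.405, 0.549 and 0.0864 times Hoxa9 in WT and at 0.159, 0.380 and 0.150 times in KI. The group 10 sum was 15.3, 16.5 and 2.07 RPKM in WT and 5.91, 16.7 and 3.62 RPKM in KI. The share of all Hox RPKM in groups 9 to 13 was 32.3%, 33.2% and 27.1% in WT and 26.1%, 35.6% and 24.7% in KI.

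**Figure D3:**
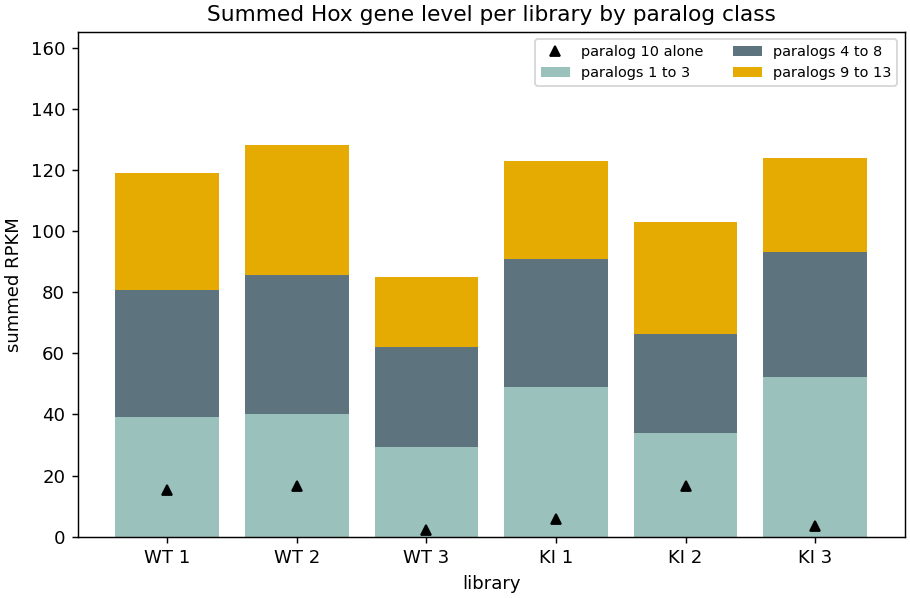
Summed RPKM of the Hox genes in each library, as stacked bars of paralog groups 1 to 3, 4 to 8 and 9 to 13, with a triangle for the sum of group 10 alone on the same axis. Totals are 119, 128 and 85.1 RPKM in WT 1 to WT 3 and 123, 103 and 124 RPKM in KI 1 to KI 3, and the triangle falls from 16.7 RPKM in KI 2 to 2.07 RPKM in WT 3.

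In both Hoxd10 and Hoxa10, WT 1 and WT 2 were above and WT 3 below all KI libraries. Their promoters are shown from GRCm38.p6, and Hoxc10 is named only. The Hoxd10 promoter (plus strand, chr2:74691641-74691890) holds a reverse-strand match to AGGTCA, the core half-site of retinoic acid receptors, and the Hoxa10 promoter (minus strand, chr6:52234940-52235189, 1 of its 2 RefSeq starts in the table) a reverse-strand match to TATAAA, each in capitals.
Hoxd10 promoter: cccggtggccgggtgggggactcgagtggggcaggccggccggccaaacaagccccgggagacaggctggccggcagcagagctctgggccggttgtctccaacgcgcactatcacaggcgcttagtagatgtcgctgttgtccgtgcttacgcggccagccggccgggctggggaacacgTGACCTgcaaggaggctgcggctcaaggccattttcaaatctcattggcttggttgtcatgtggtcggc
Hoxa10 promoter: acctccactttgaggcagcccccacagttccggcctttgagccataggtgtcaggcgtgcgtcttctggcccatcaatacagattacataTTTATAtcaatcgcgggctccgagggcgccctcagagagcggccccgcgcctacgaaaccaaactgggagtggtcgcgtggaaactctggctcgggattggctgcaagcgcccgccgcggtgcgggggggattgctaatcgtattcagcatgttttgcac
RefSeq promoters were found for 22 of the 39 genes (24 promoters). Their median GC content was 58.6%, against 52.4% over 32851 promoters. Motifs were searched on both strands over the 250 bases. TTTATNG was found in 2 of 24 Hox promoters (9.81% of all promoters), TGATNNAT in 4 (7.68%), AGGTCA in 6 (14%) and TATAAA in 4 (12.4%). The AGGTCA matches were in Hoxb4, Hoxc4, Hoxd3, Hoxd4, Hoxd8 and Hoxd10, whose means ran from 0.331 RPKM in Hoxd4 to 7.09 RPKM in Hoxb4.

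Beyond group 10 the reads ended sharply. Hoxa11, which patterns the middle segment of the limb and the kidney, had 11, 21 and 2 reads in WT and 4, 0 and 1 in KI, or 0.361, 0.724 and 0.0645 RPKM and 0.152, 0 and 0.0379 RPKM. The genotypes overlapped, and the highest values were again in WT 1 and WT 2. Hoxd11, its partner in the limb, lay between 0 and 0.225 RPKM, Hoxc11 was read only in WT 1 (0.223 RPKM, 6 reads) and Hoxd12 only in WT 3 (0.116 RPKM, 4 reads). Hoxd13, a digit gene, lay between 0.0349 and 0.333 RPKM, Hoxa13, which acts in the autopod and the hindgut, between 0 and 0.184 RPKM, and Hoxc13, known from hair and nails, between 0 and 0.128 RPKM. Hoxb13, a gene of the tail and the prostate, and Hoxc12 had 0 reads in all 6 libraries, which allows up to 0.139 RPKM for Hoxb13 and 0.298 RPKM for Hoxc12 in the shallowest library. These values do not show that the genes were silent in every cell.

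Between genotypes no Hox gene passed the threshold. Limma was run on log2(RPKM + 1) over the 10104 genes that reached 1 RPKM in 3 or more libraries, and 23 of the 39 Hox genes were among them. At a Benjamini-Hochberg adjusted p under 0.05, 0 of the 23 were called, as were 0% of all tested genes, and the smallest adjusted p of a Hox gene was 0.999. At an unadjusted p under 0.05, 1 of 23 was reached, against 1.2% (121) of all genes. Among the tested Hox genes 12 were higher and 11 lower in KI (52.2% higher, against 58.8% of all genes), and the median log2 difference was 0.033, against 0.047 over all genes. The Hox median was -0.050 with median-ratio scaling and -0.036 with quantile normalization, so no direction can be given for the set. Libraries of bulk RNA cannot tell fewer cells of a type from less RNA per cell.

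Hoxc8 had the smallest unadjusted p. Its mean was 4.91 ± 1.11 RPKM in WT and 7.55 ± 0.649 RPKM in KI (SD, n = 3 each), 1.54 times higher, and the log2 difference was 0.55 (SE 0.20, 95% interval 0.081 to 1.01, limma, unadjusted p = 0.0271, adjusted p = 0.999). It was the only 1 of 23 tested Hox genes whose libraries did not overlap between genotypes, against 6.54% of all tested genes (3.8% with KI higher and 2.74% with KI lower), and none of the 16 untested Hox genes separated. Its share therefore lies near the background.

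No other tested Hox gene had a 95% interval that left out 0. Hoxd8 was at 3.25 ± 1.15 RPKM in WT and 1.91 ± 0.325 in KI, a log2 difference of -0.51 (SE 0.24, 95% interval -1.08 to 0.054, adjusted p = 0.999). It was -0.33 without WT 1 and -0.74 without WT 3. Hoxb7 was at 4.29 ± 1.07 and 2.88 ± 0.762 RPKM, a difference of -0.44 (SE 0.24, adjusted p = 0.999). Hoxb1 was at 12.4 ± 6.04 and 17.8 ± 4.53 RPKM, a difference of 0.59 (SE 0.41, 95% interval -0.37 to 1.54, adjusted p = 0.999). WT 3 held the lowest Hoxb1 value, and the difference fell to 0.12 without it.

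Hoxd10 was at 2.95 ± 2.05 RPKM in WT and 1.16 ± 0.309 RPKM in KI, a log2 difference of -0.70 (SE 0.45, 95% interval -1.75 to 0.35, adjusted p = 0.999). Leaving out WT 3 took it to -1.26 (adjusted p = 0.478), leaving out WT 1 to -0.38 and leaving out WT 2 to -0.47. Hoxa10 differed by -0.35 (SE 0.38, adjusted p = 0.999), by -0.81 without WT 3, by -0.21 without WT 1 and by -0.044 without WT 2. Hoxc10 differed by -0.058 (SE 0.94, 95% interval -2.25 to 2.14), an interval that leaves more than 4-fold changes in either direction. It differed by -0.92 without WT 3 and by -0.89 without KI 2. Hoxa5 differed by -0.25 (SE 0.22), and the abundant genes Hoxa9 by -0.034 (SE 0.34), Hoxb2 by 0.22 (SE 0.30), Hoxa2 by 0.11 (SE 0.16) and Hoxb4 by -0.050 (SE 0.26), all with adjusted p = 0.999. Hoxa5 differed by -0.43 without WT 3 and by -0.056 without WT 2. Hoxb2 differed by 0.56 without KI 2, by 0.036 without KI 1 and by 0.067 without KI 3. Hoxa9 differed by 0.36 without KI 2 and by 0.094 without WT 3, and Hoxb4 by 0.14 and 0.15, each a change of sign.

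**Figure D4:**
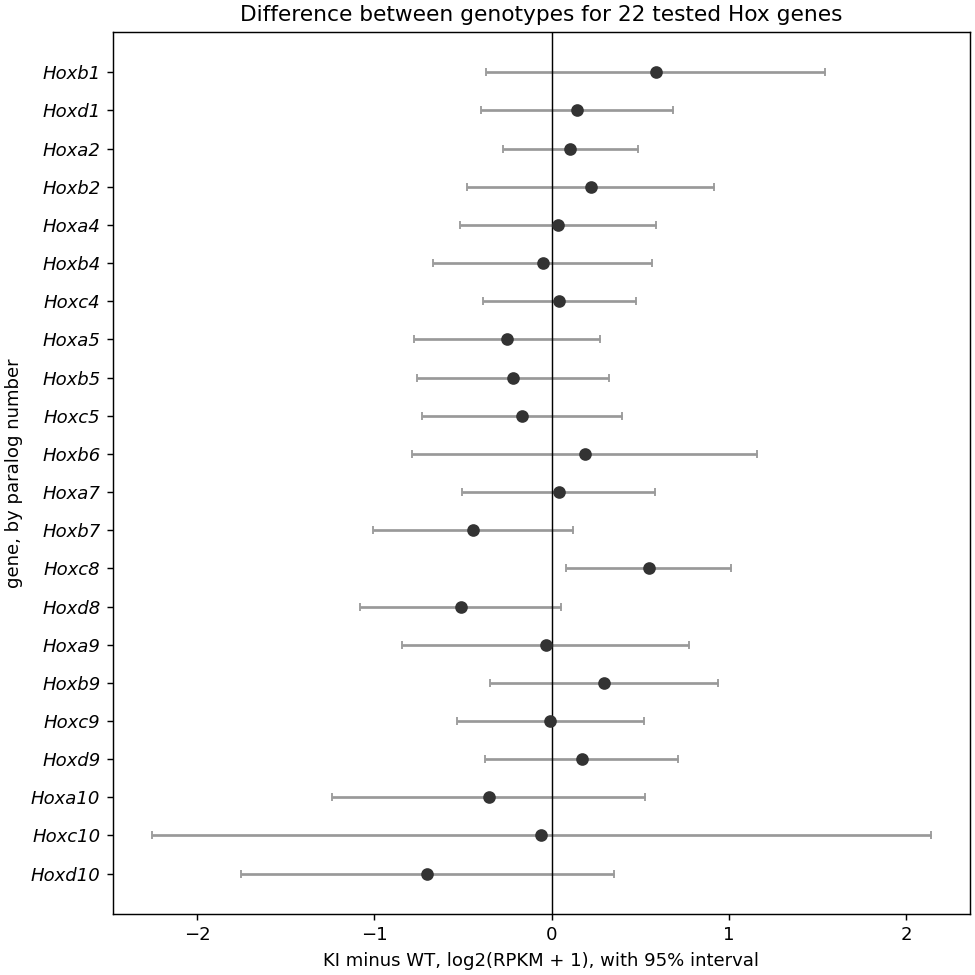
Log2 difference of KI minus WT on the log2(RPKM + 1) scale with its 95% interval from limma, for 22 of the 23 tested Hox genes in order of paralog number. Differences run from -0.70 for Hoxd10 to 0.59 for Hoxb1, the interval of Hoxc8 alone lies off 0, and that of Hoxc10 is the widest.

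The precision of these differences set what could be seen. The SEs ran from 0.16 to 0.94 with a median of 0.24, against 0.22 over all tested genes. In 15 of 23 genes the 95% interval lay within 1 unit of no difference, in either direction, on the log2(RPKM + 1) scale. For low genes such as Hoxa4 (0.858 RPKM in WT) that bound is wider than a 2-fold change in RPKM. The count therefore does not show that changes above 2-fold were left out. The other 8 included the 3 group 10 genes, Hoxb1 and Hoxb6. By position in the cluster, 5 of 5 tested genes in groups 1 to 3 had a positive difference, 5 of 11 in groups 4 to 8 and 2 of 7 in groups 9 to 13. The first 5 were all from groups 1 and 2, and 58.8% of all tested genes were higher in KI. None of these Hox genes passed the test, and members of a cluster are not independent of each other. The sum of groups 1 to 3 was 36.3 ± 6.11 RPKM in WT and 45.0 ± 9.73 RPKM in KI, with KI 2 (34.0 RPKM) inside the WT range.

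Calls on Hox genes appeared only where WT 3 and KI 2 counted for less. With library weights estimated from the data, 0.110 for WT 3 and 0.395 for KI 2 against 0.695 to 7.75 for the others, Hoxa10 (log2 difference -0.91, adjusted p = 0.0260), Hoxd8 (-0.59, adjusted p = 0.0442) and Hoxd10 (-1.13, adjusted p = 0.0190) passed, 3 of 23 against 0.92% of all tested genes. The fit of the weights stopped before its convergence tolerance was met. The largest weights were 7.75 for KI 1 and 3.41 for WT 2, against 1.25 for KI 3 and 0.695 for WT 1. The weighted fit thus leaned mostly on 1 library of each genotype. With WT 3 and KI 2 both left out, Hoxd10 passed (-1.34, adjusted p = 0.0284), 1 of 23 against 0.406% of all tested genes, and Hoxa10 (-0.80, adjusted p = 0.0986) did not. That comparison rests on 2 libraries a group, and WT 1 and WT 2 are its only WT libraries. In it, genotype and the level of Y-linked genes cannot be told apart, and the weighted fit leans the same way. The sum of 4 Y-linked genes (Kdm5d, Eif2s3y, Uty and Ddx3y) was 41.0, 42.5 and 62.0 RPKM in WT 1 to WT 3. It was 7.29, 50.9 and 0 RPKM in KI 1 to KI 3. The reported fit to all 6 libraries is therefore unbalanced in the same direction, as only KI 2 of the KI libraries lay within the WT range.

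**Figure D5:**
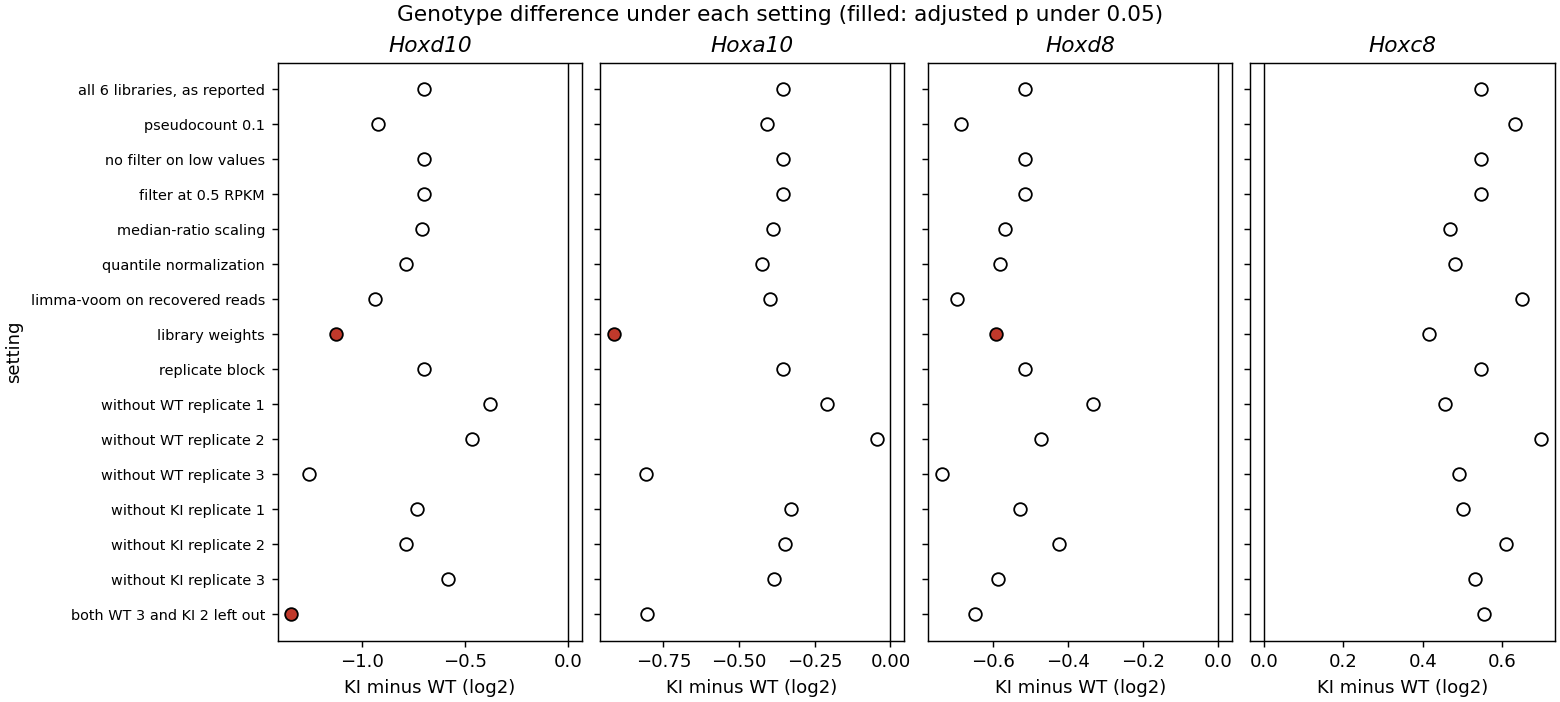
Log2 difference of KI minus WT (horizontal axis, its own range in each panel) for Hoxd10, Hoxa10, Hoxd8 and Hoxc8 under the reported fit and each of the 15 alternatives (rows), filled where the adjusted p is under 0.05. Hoxd10 runs from -1.34 to -0.38 and Hoxc8 from 0.41 to 0.70, no point crosses 0, and filled points occur with library weights and, for Hoxd10, with WT 3 and KI 2 left out.

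The partners of the Hox proteins and the regulators of the clusters were present in these embryos and none passed the test. The PBX, MEIS and PREP proteins bind DNA together with HOX proteins, and all 9 of their genes were tested, with 6 higher, 3 lower and a median difference of 0.20. Meis3 was at 8.04 ± 4.08 RPKM in WT and 11.1 ± 1.48 RPKM in KI, and Meis1 at 7.89 ± 2.09 and 7.64 ± 1.99 RPKM. Of 14 activators upstream of Hox genes, 11 were tested, with 7 higher, 4 lower and a median difference of 0.15. Cdx4, a caudal homeobox gene that activates central Hox genes, was at 46.0 ± 9.33 RPKM in WT and 63.7 ± 24.4 RPKM in KI, and was lowest in KI 2 (35.6 RPKM). Cyp26a1, the enzyme that degrades retinoic acid in the tail, was at 20.03 ± 5.82 and 29.0 ± 12.02 RPKM.

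Among 16 Polycomb and trithorax regulators, which keep Hox clusters silent or active, 15 were tested, with 12 higher, 3 lower and a median difference of 0.17. The Polycomb genes Rnf2 and Eed were at 54.9 ± 8.50 and 42.1 ± 5.44 RPKM in WT and at 54.7 ± 0.579 and 36.8 ± 2.58 RPKM in KI. Among 7 ParaHox and cluster-flanking homeobox genes only Gbx2 was tested (1.58 ± 0.260 and 1.61 ± 1.12 RPKM, difference -0.095). Evx2, which flanks HoxD at its 5′ end, was at 0 in every library, as were Gsx1 and Gsx2, while Evx1, which flanks HoxA, lay between 0.769 and 1.24 RPKM. The genes listed for the anterior head, a region without Hox transcripts, had 5 of 8 tested, 2 higher and 3 lower with a median difference of -0.032. Some of them, such as Pax6 in the spinal cord, are also expressed where Hox genes are. Otx2 was at 5.01 ± 1.37 RPKM in WT and 8.13 ± 2.41 RPKM in KI.

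Tissue makeup moved between libraries beside the Hox values, and its part in them was not tested. The 7 paraxial mesoderm markers summed to 50.6, 53.7 and 24.1 RPKM in WT and 43.1, 27.2 and 45.5 RPKM in KI (4 of 7 tested), low in WT 3 and KI 2, the libraries in which Hoxb1 and Hoxb6 were also lowest. Meox1 made up most of this sum (33.7 RPKM in WT 1 and 14.8 RPKM in KI 2), and Pax3 of the same list was highest in KI 2 (4.97 RPKM). The 7 spinal cord and hindbrain markers summed to 6.21, 6.21 and 3.39 RPKM in WT and 7.70, 14.9 and 5.27 RPKM in KI (1 of 7 tested), highest in KI 2, where Hoxc10 was highest. Nkx6-1 gave 7.61 RPKM of the KI 2 sum, and Olig2 and Neurog2 were highest in WT 2 (0.499 RPKM) and WT 1 (0.270 RPKM). Lateral plate and limb bud markers (6 of 7 tested) summed to between 16.2 RPKM in WT 3 and 33.1 RPKM in KI 1, and allantois markers (6 of 7 tested) to between 40.2 RPKM in KI 2 and 58.0 RPKM in KI 1. Tbx4 and Pitx1 are in both lists, and Pitx1 gave 16.3 RPKM of each KI 1 sum. The 6 primitive blood markers summed to between 1778 RPKM in WT 3 and 2628 RPKM in WT 1, and 6 trophoblast markers to between 6.34 RPKM in KI 2 and 21.8 RPKM in WT 3, with Prl3d1 and Tpbpa at 0. Maternal decidua, a tissue with Hoxa10 transcripts, had 0 of 8 markers tested, with Gzmd, Gzme, Gzmf and Gzmg at 0 and a highest value of 0.320 RPKM. No gene of any of these lists passed the adjusted threshold.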

How the data were processed

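Oligo(dT)-selected RNA went into SMARTER mRNA-seq libraries, per the labels' protocols. The table deposited by the authors is named in the labels as raw counts, but its values are RPKM. Multiplied by exon length (GENCODE M21) and depth, 97.9% to 98.0% of values between 0 and 2000 reads fell within 0.05 of a whole number. Per the submitters' processing notes the genome build was GRCm39; the sources used here name no aligner, counting tool or annotation. Of 21899 rows, 22 repeats of 20 symbols were dropped.

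KI was tested against WT with limma 3.58.1 (R 4.3.3) on log2(RPKM + 1), with trend and robust prior, no covariate, and Benjamini-Hochberg adjustment over 10104 genes at 0.05. The edgeR test planned for raw counts was not used. Log2 differences on this scale understate changes of low genes. The test was checked on simulated data. Statistics are printed for the 6 tested Hox genes with the smallest unadjusted p and the 6 with the highest mean, and, added after their values were seen, Hoxa10 and Hoxc10. From other lists up to 4 members were named, by level. Some genes that these rules select are not reported here. Members and lists were chosen with earlier results of these data known. Alternatives covered pseudocount (0.1), filter, scaling, limma-voom on recovered reads, library weights, replicate number and leaving out libraries. Poisson intervals and, for Hoxb13 and Hoxc12, limits for a count of 0 (3 reads) cover counting error only. Promoters, microRNAs and UTR sites come from RefSeq or GENCODE on GRCm38, so no Hox gene coordinates of the files' build are given.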

Additional observations from a re-analysis of the deposited data

How the results depend on the processing

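The count of Hox genes past the adjusted threshold was 0 in the reported fit (23 tested) and under every alternative (37 tested with no filter, 24 with the filter at 0.5 RPKM, otherwise 23) but a pair. Library weights gave 93 calls among all genes, 3 of them Hox genes, and leaving out WT 3 and KI 2 together gave 41 calls, 1 of them a Hox gene. Leaving out each library in turn gave 0 calls, with 62 to 457 genes and 0 to 7 Hox genes at an unadjusted p under 0.05. Without WT 3 the latter was 7, against 1 as reported. The median Hox difference ran from -0.068 to 0.094 over all 15 alternatives. Of 12 Hox genes with printed statistics, 9 kept their direction throughout. The exceptions were Hoxa9, 0.35 with library weights and 0.48 with both libraries out, Hoxb4, 0.30 and 0.34 under the same settings, and Hoxc10. With libraries left out in turn, Hoxa9 ran from -0.29 to 0.36, Hoxb4 from -0.19 to 0.15 and Hoxc10 from -0.92 to 0.65. The cause was not tested. Same-numbered libraries did not deviate together (correlations 0.124, -0.0507 and 0.00540), so no pairing by number was seen. The outlying WT 3 and KI 2 enter the group means behind these values and could mask a pairing. With the replicate number as a block, 0 genes were called, 139 had an unadjusted p under 0.05 (121 without the block) and the Hox median was 0.033, as reported. At an unadjusted p under 0.05, 372 genes were reached with no filter, 189 with median-ratio scaling, 213 with quantile normalization, 1600 with library weights and 1177 with both libraries out, against 121 as reported. Depth limits the genes of groups 11 to 13, where 1 read over 2 kb is worth 0.0369 to 0.0512 RPKM.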
